A study of Homo sapiens with 4 samples.

Results

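Laminins, nidogens and perlecan are the glycoproteins and the large proteoglycan that, with type IV collagen, build basement membranes. The 9 genes described here, *LAMA2*, *LAMA4*, *LAMA5*, *LAMB1*, *LAMB2*, *LAMC1*, *NID1*, *NID2* and *HSPG2*, were chosen by name as a list of basement membrane genes and matched by Ensembl gene ID, and all 9 were among the 63677 genes in the count table. Each of the 9 also passed the filter on low counts, which 18252 genes passed in all. LX-2, a long-established human line derived from hepatic stellate cells, which make scar matrix in the liver, was transfected with a mimic of the microRNA miR-6133-5p or with a negative control mimic (miControl), each at 20 nM. After 24 h, both groups received rhTGF-β1, the recombinant form of a growth factor that drives fibrogenesis, at 5 ng/mL, and RNA was taken 24 h later. The comparison asks which transcripts differed with the mimic under rhTGF-β1. As all libraries carry rhTGF-β1 and come from 1 line, they hold no value for cells without rhTGF-β1 or for other stellate cells.

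The counts on genes summed to 51862006 and 57903388 in replicates 1 and 2 of miControl and to 61747010 and 93811213 in replicates 1 and 2 of miR-6133-5p. Levels are given as CPM relative to the library total scaled by the TMM factors of edgeR, and 1 count was worth between 0.0101 and 0.0203 CPM. *LAMA2*, the least abundant of the 9 genes, had 101 to 232 counts per library, and *LAMC1*, the most abundant, had 24872 to 66216. Of 12 markers of stellate cells or myofibroblasts, 10 had at least 3 counts in every library, *SPARC* being the most abundant. Their summed level was 9473 and 8866 CPM with miControl and 6521 and 5882 CPM with miR-6133-5p, and 4 of them were called lower. The stellate markers *DES* and *LRAT* were at or near 0, with at most 2 and 7 counts in any library. The summed markers of hepatocytes, endothelial cells, cholangiocytes and leukocytes stayed below 8 CPM in every library, with *SERPINA1*, *KDR*, *KRT7* and *CD14* as their most abundant genes, *TTR* and *CD163* at 0 in all 4 libraries, and *PECAM1* not matched in the table.

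A laminin is assembled inside the cell from an alpha, a beta and a gamma chain, secreted, and joined into a sheet on the cell surface. The alpha chain binds integrins and dystroglycan, the gamma chain encoded by *LAMC1* is shared by most laminins and carries the site that nidogens bind, and nidogens and the heparan sulfate proteoglycan perlecan connect the laminin sheet with type IV collagen. In healthy liver the sinusoids lack a continuous basement membrane, and in fibrosis basement membrane proteins are laid down along them, with stellate cells among their sources.

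The expression of *NID1* and *LAMC1* was lower and that of *LAMA5* was higher in the miR-6133-5p-treated cells, whereas the other 6 genes were not called. A gene was called when its adjusted p-value was below 0.01 and its log2 fold change lay beyond 0.8 in either direction, the thresholds of the study's methods. By this rule 2 of the 9 genes were called lower, where 5.54% of all tested genes were, and 1 was called higher, where 2.90% were. For 4 genes the higher miR-6133-5p library was still below the lower miControl library, where 31.3% of all tested genes did so, and for 3 genes the order was the reverse, as for 33.2% of all. The shares without overlap are thus close to those of all genes in the higher direction, and with 9 genes neither count can be read as particular to them. The median log2 fold change of the 9 genes was 0.05, beside 0.03 over all tested genes, and the values ran from -2.54 to 1.32. Without replicate 2 of miR-6133-5p the median of the 9 genes was -0.31, beside -0.01 over all tested genes. Nothing in the labels says that the replicates were separate cultures, so the p-values measure only the spread between these libraries. In bulk RNA, fewer cells that express a gene and less RNA of it per cell cannot be told apart.

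**Figure D1:**
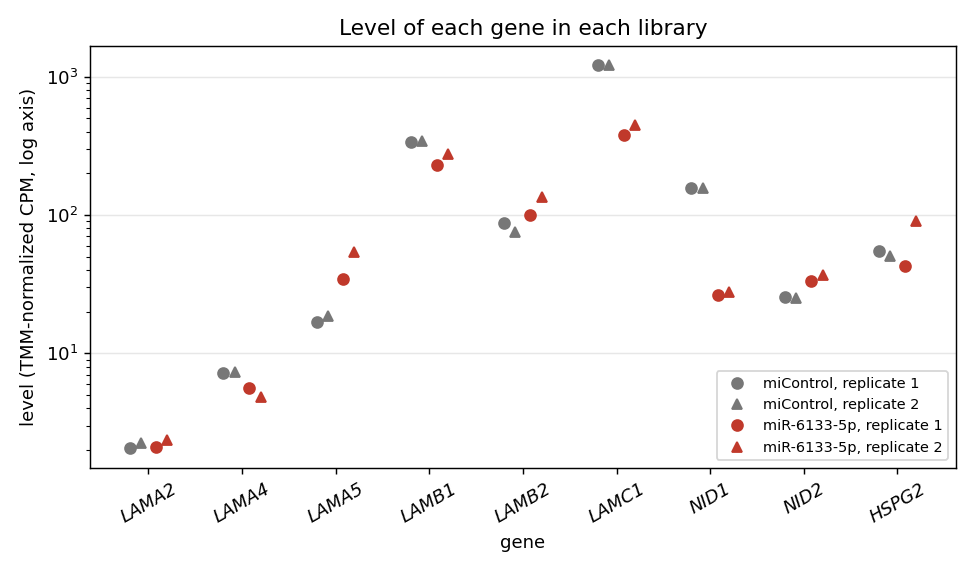
Level of each gene in TMM-normalized CPM on a log axis, with 1 point per library (grey, miControl; red, miR-6133-5p; circles, replicate 1; triangles, replicate 2). *LAMC1* and *NID1* were lower and *LAMA5* was higher in both miR-6133-5p libraries, and the red points of *HSPG2* lie on both sides of the grey ones.

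The promoters of the 3 called genes are shown because *LAMC1* and *NID1* fell together while *LAMA5* rose. The windows of 300 bases end 50 bases after the annotated start of each gene, as given by RefSeq for GRCh38.p14, and all 9 genes had a window. They were searched on both strands for the GC box GGGCGG, the TATA sequence TATAAA, the SMAD-binding letters CAGACA and the AP-1 letters TGACTCA, and capitals mark each match or its reverse complement.
*LAMC1* (chr1:183023170-183023469, plus strand): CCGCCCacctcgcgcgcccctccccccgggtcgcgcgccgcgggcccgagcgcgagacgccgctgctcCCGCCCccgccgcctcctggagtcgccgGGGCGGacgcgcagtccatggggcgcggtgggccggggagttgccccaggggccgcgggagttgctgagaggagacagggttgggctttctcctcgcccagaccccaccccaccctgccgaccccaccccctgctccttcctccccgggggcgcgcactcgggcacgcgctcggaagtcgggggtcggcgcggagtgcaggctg
*NID1* (chr1:236065041-236065340, minus strand): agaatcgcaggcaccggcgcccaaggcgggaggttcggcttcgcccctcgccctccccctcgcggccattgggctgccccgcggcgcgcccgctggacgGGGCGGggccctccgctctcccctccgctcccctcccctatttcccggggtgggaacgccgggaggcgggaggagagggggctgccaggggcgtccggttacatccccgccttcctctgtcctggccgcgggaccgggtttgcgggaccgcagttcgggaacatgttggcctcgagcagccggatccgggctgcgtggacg
*LAMA5* (chr20:62367263-62367562, minus strand): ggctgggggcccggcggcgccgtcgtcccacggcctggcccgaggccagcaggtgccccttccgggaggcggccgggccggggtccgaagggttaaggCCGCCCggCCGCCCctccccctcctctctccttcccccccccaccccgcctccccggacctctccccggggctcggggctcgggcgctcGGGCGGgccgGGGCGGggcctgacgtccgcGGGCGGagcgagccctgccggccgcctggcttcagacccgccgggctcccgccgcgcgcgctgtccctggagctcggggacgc

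All capitals in the 3 windows are GC boxes, of which *LAMC1* had 3, *NID1* had 1 and *LAMA5* had 5. GGGCGG or its complement was found in 7 of the 9 windows, *LAMA2* and *LAMA4* being the exceptions, and in 45.0% of the 35116 windows of all genes. TATAAA was in 0 of the 9 windows and in 11.5% of all, and TGACTCA in 0 of the 9 and in 4.95% of all. CAGACA was in 2 of the 9, those of *LAMA4* and *HSPG2*, and in 16.9% of all. The share of G and C was 79.0% for *LAMC1*, 74.7% for *NID1* and 82.7% for *LAMA5*, beside a median of 58.7% over all windows. It did not set the called genes apart, as the uncalled *HSPG2* had 83.3% and 10 GC boxes, *LAMB1* 71.0% and *NID2* 69.0%, with 4 GC boxes each, while *LAMB2* had 58.7%, *LAMA2* 55.3% and *LAMA4* 51.3%. A match is a description of letters only.

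Of the laminin chains, the gamma chain gene *LAMC1* (ENSG00000135862, chromosome 1 from 182992555 to 183114727 of GRCh37) was the most abundant of the 9. Its level was 1208 and 1216 CPM in the miControl libraries and 380.4 and 451 CPM in the miR-6133-5p libraries. The groups did not overlap, and the miControl libraries were nearly equal. The mean fell from 1212 ± 5.17 to 416 ± 49.8 CPM (SD, n = 2), a 2.92-fold lower level (log2 fold change -1.54 with a standard error, SE, of 0.112, edgeR adjusted p = 5.58e-07). This was the 361st lowest of the 18252 fold changes. *LAMC1* was called lower under every alternative tried, with log2 fold changes from -1.69 to -1.38. Per kb of annotated exons its level stood at percentile 99.0 of the tested genes with miControl and still at 96.2 with miR-6133-5p.

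The beta chain genes showed no call. *LAMB1* (chromosome 7 from 107564244 to 107643658), which encodes the beta chain of the early embryonic laminins, was at 340.4 and 346 CPM with miControl and at 229 and 277 CPM with miR-6133-5p. The miR-6133-5p libraries were the lower ones without overlap, but the log2 fold change of -0.44 (SE 0.114, edgeR adjusted p = 0.0104) missed both thresholds. *LAMB2* (chromosome 3 from 49158547 to 49170551), the beta chain gene known from synapses and the kidney glomerulus, was at 87.5 and 75.8 CPM with miControl and at 100.5 and 134 CPM with miR-6133-5p. Here the miR-6133-5p libraries were the higher ones, with a log2 fold change of 0.53 (SE 0.136, edgeR adjusted p = 0.0103), again past neither threshold. With library totals alone *LAMB1* was at -0.27, and without replicate 2 of miR-6133-5p *LAMB2* was at 0.29. The beta chain genes therefore lay on opposite sides of 0 without either passing the test.

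Among the alpha chain genes, *LAMA5* (ENSG00000130702, chromosome 20 from 60883011 to 60942368), whose chain is the widespread alpha chain of adult epithelial and vascular basement membranes, was the gene called higher. Its level was 16.8 and 18.6 CPM in the miControl libraries and 34.7 and 53.8 CPM in the miR-6133-5p libraries. The groups did not overlap, although the miR-6133-5p libraries differed from each other by more than the miControl libraries did. The mean rose from 17.7 ± 1.28 to 44.2 ± 13.5 CPM (SD, n = 2), 2.5-fold, with a log2 fold change of 1.32 (SE 0.169, edgeR adjusted p = 6.72e-05). The call was lost without replicate 1 of miControl, at a log2 fold change of 1.24 and an adjusted p of 0.0106, and when glmTreat tested the fold change against 0.8, at an adjusted p of 0.0309 (edgeR), in a range of 1.62e-24 to 0.0309 over all alternatives. With each library left out in turn the log2 fold change ran from 0.95, without replicate 2 of miR-6133-5p, to 1.58, without replicate 1.

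*LAMA4* (chromosome 6 from 112429134 to 112576141), which encodes an alpha chain of endothelial and mesenchymal cells, was at 7.24 and 7.27 CPM with miControl and at 5.63 and 4.83 CPM with miR-6133-5p. It was lower in both miR-6133-5p libraries, with a log2 fold change of -0.48 (SE 0.151) that was not called (adjusted p = 0.0295, edgeR) and stood at -0.31 with library totals alone. *LAMA2* (chromosome 6 from 129204283 to 129837711), the alpha chain gene of muscle and nerve, was at 2.05 and 2.24 CPM with miControl and at 2.11 and 2.34 CPM with miR-6133-5p. The groups of *LAMA2* overlapped, and its log2 fold change of 0.05 (SE 0.218, edgeR adjusted p = 0.889) was smaller than its error. It ran from -0.04, without replicate 2 of miR-6133-5p, to 0.22, with library totals alone.

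The nidogens diverged. *NID1* (ENSG00000116962, chromosome 1 from 236139130 to 236228409) had the largest change of the 9 genes, at 157 and 158 CPM in the miControl libraries and 26.5 and 27.8 CPM in the miR-6133-5p libraries. Both groups were tight and far apart. The mean fell from 158 ± 0.376 to 27.2 ± 0.930 CPM (SD, n = 2), a 5.80-fold lower level with a log2 fold change of -2.54 (SE 0.106, edgeR adjusted p = 1.12e-08), the 50th lowest among all tested genes. *NID1* was called lower under every alternative tried, with log2 fold changes from -2.59 to -2.37. Per kb its level went from percentile 91.6 to percentile 62.6 of the tested genes.

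*NID2* (ENSG00000087303, chromosome 14 from 52471527 to 52535777), the other nidogen gene, was at 25.7 and 25.2 CPM with miControl and at 33.2 and 37.1 CPM with miR-6133-5p. Its groups did not overlap either, with the miR-6133-5p libraries on the higher side. The log2 fold change of 0.47 (SE 0.110) had an adjusted p of 0.00582 (edgeR), below 0.01, but its size stayed under 0.8, so *NID2* was not called. *RTRAF*, read from the other strand, shares 30.7% of the exon bases of *NID2*, and the strand setting of the counting is not given in the sources used here. *RTRAF* itself was at 185 and 191 CPM with miControl and at 225 and 187 CPM with miR-6133-5p, and was not called (log2 fold change 0.13, edgeR adjusted p = 0.437), and its part in the *NID2* counts was not tested.

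*HSPG2* (ENSG00000142798, chromosome 1 from 22148737 to 22263803), the perlecan gene, was the least even of the 9. It was at 54.8 and 50.2 CPM with miControl and at 42.7 and 90.9 CPM with miR-6133-5p. The miR-6133-5p libraries lay on both sides of the miControl libraries, so the groups overlapped, and the log2 fold change of 0.35 (SE 0.236, edgeR adjusted p = 0.297) was not called. Without replicate 2 of miR-6133-5p it was -0.31, and without replicate 1 it was 0.77, so its direction rests on which of these libraries is kept. *LDLRAD2*, read from the other strand, shares 11.7% of the exon bases of *HSPG2*, and *LDLRAD2* had at most 12 counts in any library.

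**Figure D2:**
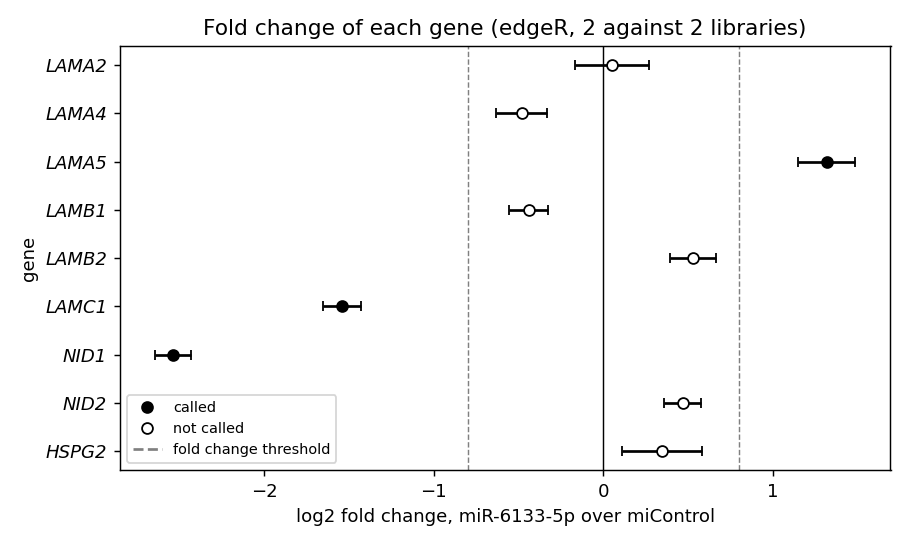
Log2 fold change of each gene, miR-6133-5p over miControl, with its standard error as a horizontal bar (edgeR, 2 libraries per group). Filled points are called genes, and the dashed lines mark a log2 fold change of 0.8 in either direction. *NID1* at -2.54, *LAMC1* at -1.54 and *LAMA5* at 1.32 lie beyond them.

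Replicate 2 of miR-6133-5p was higher than replicate 1 for 8 of the 9 genes, *LAMA4* being the exception, and the gap was widest for *HSPG2* and *LAMA5*. The log2 ratio of replicate 2 over replicate 1 was 1.09 for *HSPG2*, 0.63 for *LAMA5* and 0.42 for *LAMB2*, and 0.24 for *LAMC1* and 0.07 for *NID1*. In miControl the same ratio was -0.12 for *HSPG2* and 0.15 for *LAMA5*. Among 13007 tested genes with a mean of at least 1 CPM and a count in every library, 59 had a ratio in miR-6133-5p as high as that of *HSPG2*, or 0.454%, and 306 one as high as that of *LAMA5*, or 2.35%. With these genes split into 10 groups by the length of their longest transcript, the median ratio went from -0.19 in the shortest group to 0.24 in the longest in miR-6133-5p, and from -0.06 to 0.07 in miControl. The longest transcripts of *HSPG2* and *LAMA5* have 14341 and 11426 bases with a GC content of 64.5% and 66.4%, which puts both genes in the top 10% for length and for GC content. Grouped by GC content alone, the median ratio in miR-6133-5p was nearly flat, at -0.05 in the lowest group and -0.00 in the highest, and in miControl it went from 0.17 to -0.14. The 41 genes in the top 10% for both properties had a median ratio of 0.49 in miR-6133-5p and of -0.12 in miControl. These properties were looked at after the values were seen, and the part of length or GC content in the values of *HSPG2* and *LAMA5* was not tested. Replicate 2 of miR-6133-5p is also the deepest library. With all libraries thinned to 51862006 counts the log2 fold change was 1.34 for *LAMA5* and 0.35 for *HSPG2*. These were close to or the same as without thinning, but random thinning keeps each gene's expected share of its library. They therefore cannot show the part of depth in the gap, which was not tested. The median log2 fold change went from 0.09 in the shortest group to -0.09 in the longest.

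**Figure D3:**
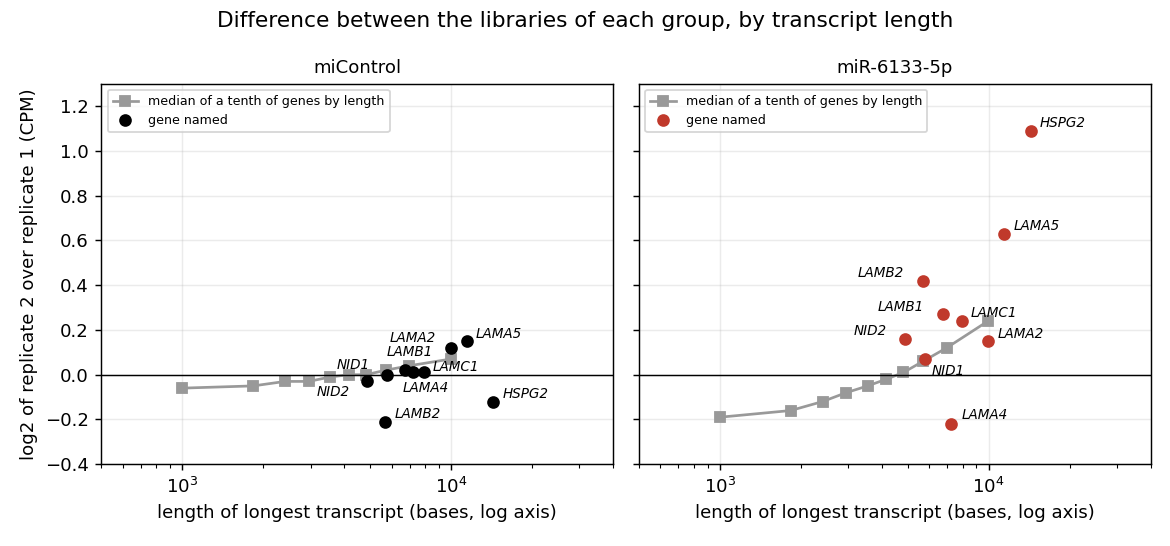
Log2 ratio of replicate 2 over replicate 1 in each group against the length of the longest transcript on a log axis. Grey squares are medians of 10 groups of 13007 genes by length, placed at their median length, and round points are the 9 genes. In miR-6133-5p, *HSPG2* at 1.09 and *LAMA5* at 0.63 lie above the grey line.

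Ratios of chains within a library do not depend on its scaling, but they keep any library difference that goes with transcript length. They were taken from CPM per kb of annotated exons, and no p-value is given, since an exact test of 2 against 2 libraries cannot go below 0.33. The ratio of *LAMB1* to *LAMC1* was 0.128 and 0.129 with miControl and 0.274 and 0.279 with miR-6133-5p, a gap far wider than the spread between replicates. The summed beta chains, which include *LAMB3* and *LAMB4*, stood at 32.3 and 31.1 CPM per kb with miControl and at 28.8 and 36.5 with miR-6133-5p, where the groups overlapped.

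These ratios depend on the gene length used, since the annotated exons of *LAMB1* add up to 18592 bases and its longest transcript has 6737. Per length of the longest transcript, the ratio of *LAMB1* to *LAMC1* was 0.332 and 0.335 with miControl and 0.709 and 0.724 with miR-6133-5p, below 1 on either length in all libraries. The ratio of *LAMB1* to *LAMC1* differed 2.15-fold between the groups on either length.

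The alpha chains were far scarcer, at 2.72 and 2.75 CPM per kb in sum with miControl and 3.68 and 5.16 with miR-6133-5p. This sum also holds *LAMA1* and *LAMA3*, which are not among the 9 genes, and *LAMA1* made up 25.2% and 22.7% of it with miControl and 15.8% and 14.8% with miR-6133-5p. *LAMA5* made up 43.3% and 47.4% of this sum with miControl and 66.0% and 73.0% with miR-6133-5p, or 37.2% and 40.8%, and 59.8% and 67.6%, per longest transcript. *LAMA4* made up 22.2% and 22.0% with miControl and 12.8% and 7.82% with miR-6133-5p. The groups did not overlap in either share.

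The nidogens changed places. *NID2* stood to *NID1* as 0.153 and 0.149 with miControl and as 1.17 and 1.25 with miR-6133-5p, 8.0-fold apart, and as 0.195 and 0.190, and 1.49 and 1.59, per longest transcript. *NID1* to *LAMC1* was 0.189 in both miControl libraries and 0.101 and 0.0897 with miR-6133-5p, so the fall of *NID1* exceeded that of *LAMC1*. The sum of both nidogens to *LAMC1* was 0.218 and 0.217 with miControl and 0.220 and 0.202 with miR-6133-5p, where the groups overlapped. Per longest transcript that sum was 0.213 and 0.211, and 0.237 and 0.219, so its direction depends on the length used.

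**Figure D4:**
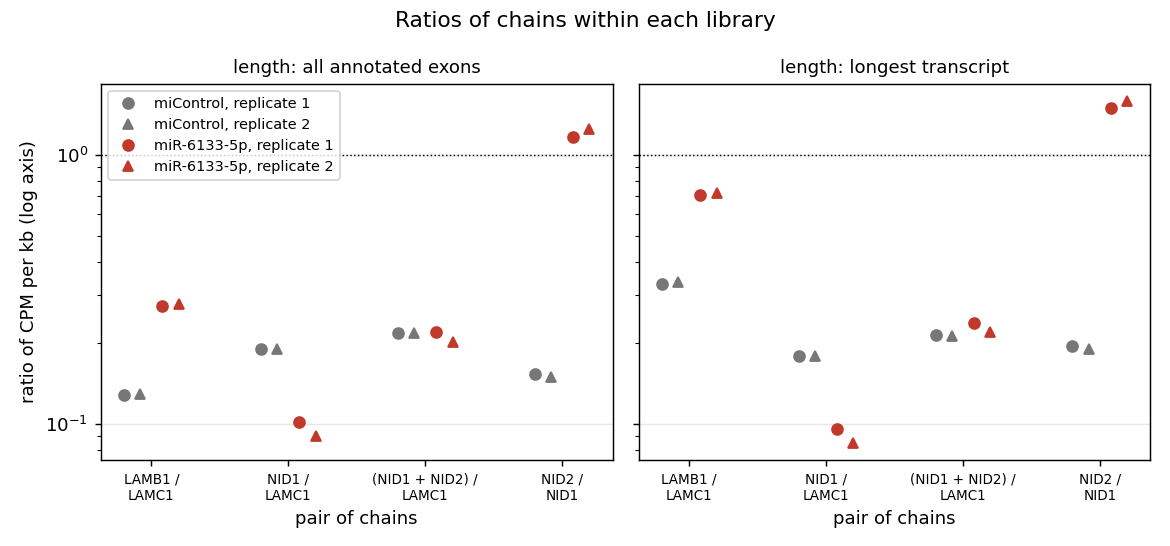
Ratios of CPM per kb between chains within each library, on a log axis, with length taken as all annotated exons (left) or as the longest transcript (right). Grey points are miControl and red points miR-6133-5p, circles are replicate 1 and triangles replicate 2, and the dotted line marks equal levels. *NID2* over *NID1* lies below the line at 0.153 and 0.149 with miControl and above it at 1.17 and 1.25 with miR-6133-5p on the exon length.

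Ordered by CPM per kb of exons, the 9 genes ran from *LAMC1* at a mean of 144 through *NID1* at 27.1, *LAMB1* at 18.5, *LAMB2* at 11.9, *NID2* at 4.09, *HSPG2* at 2.90, *LAMA5* at 1.24 and *LAMA4* at 0.606 to *LAMA2* at 0.0813 with miControl. No neighbours in that order overlapped between their libraries. With miR-6133-5p the order was *LAMC1* at 49.2, *LAMB2* at 17.1, *LAMB1* at 13.6, *NID2* at 5.65, *NID1* at 4.67, *HSPG2* at 3.69, *LAMA5* at 3.10, *LAMA4* at 0.436 and *LAMA2* at 0.0842. There *LAMB2* and *LAMB1* overlapped, and *HSPG2* overlapped both *NID1* and *LAMA5*, so those places are not resolved. Per longest transcript *LAMB1* stayed above *LAMB2*, at 50.9 and 14.3 with miControl and at 37.6 and 20.6 with miR-6133-5p. *LAMC1* was first on either length, and *NID1*, above *NID2* with miControl, was below it with miR-6133-5p. *NID1* came next after *LAMC1* with miControl on the exon length only, as *LAMB1* lay above it per longest transcript.

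Of 6 genes of other laminin chains, 5 were tested, with a median log2 fold change of -0.24. The alpha chain gene *LAMA1*, at 0.04, and the beta chain gene *LAMB3*, at 0.57, were not called.

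The transcripts of basement membrane collagens, among them the type IV collagens that nidogens join to laminin, changed less than that of *NID1*. Of the 8 basement membrane collagen genes, all tested, 0 were called lower and 1 higher, with a median log2 fold change of -0.50. *COL4A1*, at 546 and 534 CPM with miControl and 309 and 401 CPM with miR-6133-5p, changed by less than 0.8 (log2 fold change -0.60, SE 0.124, edgeR adjusted p = 0.00249), and *COL4A2* was at -0.40 (adjusted p = 0.0316, edgeR). *COL4A5* was called higher at 0.86, from 11.7 and 12.3 to 20.4 and 23.0 CPM. Without replicate 2 of miR-6133-5p, *COL4A1* was called lower at -0.82 and *COL4A5* was not called at 0.75, and *COL4A5* was also not called without replicate 1 of miControl, at 0.81.

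Other basement membrane proteins went both ways. Of 14 listed, 13 were tested, 2 were called lower and 2 higher, with a median log2 fold change of 0.10. *NTN4*, a netrin that binds the laminin gamma chain and can disrupt laminin sheets, was at 8.99 and 10.2 CPM with miControl and at 32.9 and 32.2 CPM with miR-6133-5p (log2 fold change 1.76, SE 0.120, edgeR adjusted p = 3.53e-07). *TINAGL1*, a laminin- and integrin-binding matrix protein, was called higher at 1.04. The matricellular genes *TNC* at -0.92 and *THBS1* at -0.86 were called lower. *TNC* was not called without replicate 1 of miControl, at -0.90, nor without replicate 1 of miR-6133-5p, at -0.78, and *THBS1* was not called without the latter, at -0.78.

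Of 13 laminin receptor genes, all tested, 2 were called lower and 1 higher, with a median log2 fold change of -0.24. *CD151*, the tetraspanin that partners laminin-binding integrins, was at 119 and 101 CPM with miControl and at 28.2 and 21.4 CPM with miR-6133-5p (log2 fold change -2.16, SE 0.139, edgeR adjusted p = 2.30e-07), while the laminin-binding integrin gene *ITGA7* was called higher at 2.00. *SDC1*, which encodes a syndecan, was called lower at -0.82, though not without replicate 1 of miControl, at -0.79.

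Laminin binds dystroglycan through the sugar polymer matriglycan. The 13 genes of its synthesis were all tested, with a median log2 fold change of -0.41. *B4GAT1*, which makes the primer of the polymer, was called higher at 0.87, but at 0.76 it was not called without replicate 2 of miControl or without replicate 1 of miR-6133-5p. *POMGNT1*, which encodes another enzyme of O-mannosyl glycans, was at -0.62 and not called.

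Perlecan carries heparan sulfate chains. Of 21 genes of heparan sulfate synthesis and editing, 19 were tested, 3 were called lower and 0 higher, with a median log2 fold change of -0.09. *NDST1*, the first enzyme to modify the sugar chain, was at 377 and 362 CPM with miControl and at 173 and 203 CPM with miR-6133-5p (log2 fold change -0.98, SE 0.112, edgeR adjusted p = 2.56e-05). The 3-O-sulfotransferase genes *HS3ST3B1* at -2.11 and *HS3ST3A1* at -0.91, which encode enzymes with nearly the same catalytic domain, were also called lower.

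Over the 6 lists together, 71 of 75 genes were tested, 9 were called lower and 5 higher, where 5.54% and 2.90% of all tested genes were, with a median log2 fold change of -0.24 beside 0.03 over all tested genes. *NTN4*, *CD151*, *ITGA7* and *HS3ST3B1* were called under every alternative tried, and 8 of the 14 called genes were lost under at least 1. All 8 were lost with glmTreat, at adjusted p-values (edgeR) of 0.208 for *TINAGL1*, 0.360 for *NDST1*, 0.720 for *TNC*, 0.773 for *HS3ST3A1* and 1.00 for *COL4A5*, *THBS1*, *SDC1* and *B4GAT1*. With library totals alone *TNC* at -0.76, *THBS1* at -0.70, *SDC1* at -0.66 and *HS3ST3A1* at -0.75 were not called.

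**Figure D5:**
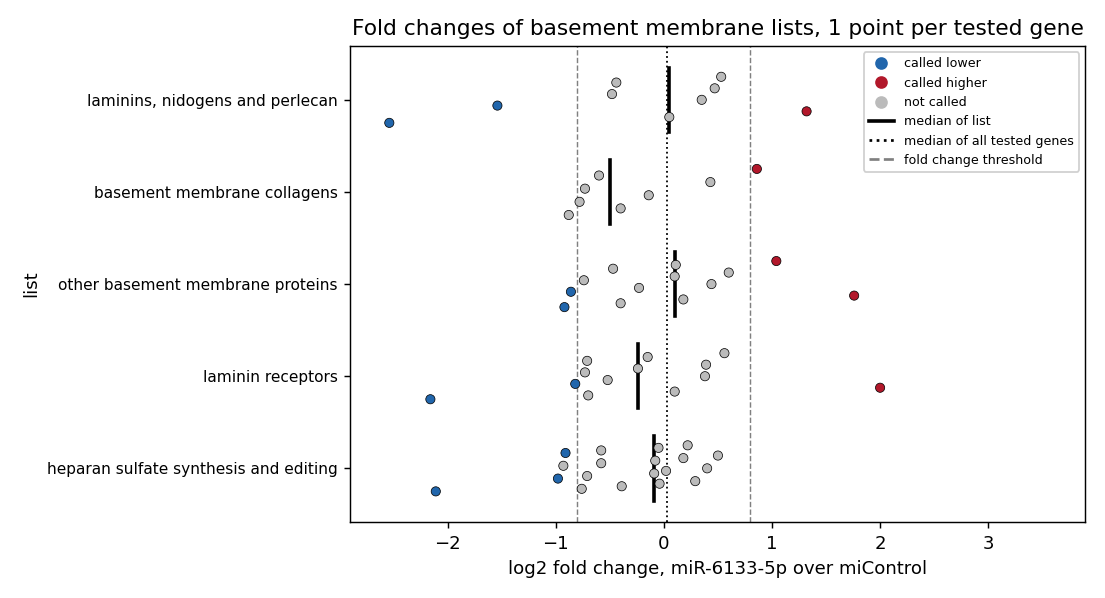
Log2 fold changes of the 9 genes and of 4 of the lists around them, with 1 point per tested gene (blue, called lower; red, called higher; grey, not called), a black bar at the median of each list, a dotted line at the median of all tested genes and dashed lines at 0.8 in either direction. The 9 genes span -2.54 to 1.32 around a median of 0.05.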

How the data were processed

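RNA from 2 libraries per group was sequenced as read pairs. Per the submitters' processing notes the authors aligned reads to GRCh37 with STAR 2.5.3a and counted them with featureCounts of Subread 1.6.4. The annotation release and the strand setting are not given in the sources used here. The authors deposited whole-number counts per Ensembl gene without normalization, as a table and for each library on its own, and these were identical in 4 of 4 libraries. The deposited mapping summary gave 30449618 to 55962745 uniquely mapped read pairs per library, and totals of 1.6763 to 1.7032 counts per pair, so mates appear to have been counted separately.

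Counts were filtered with filterByExpr, scaled by TMM (factors 0.948 and 0.941 for miControl, 1.06 and 1.06 for miR-6133-5p), and tested with the quasi-likelihood F test of edgeR 4.0.16 under R 4.3.3, 2-sided, without a block, with Benjamini–Hochberg adjustment over 18252 genes. Standard errors were derived from the F statistic. The procedure was tested on simulated data. Those data held no difference between replicates tied to transcript length or GC content, so the test cannot show how one affects calls. Gene positions, exon lengths and overlaps were read from GENCODE gene models carried over to GRCh37 coordinates, possibly not the models used for counting. The alternatives were RLE factors, library totals alone, DESeq2 1.42.0, no filter, at least 10 counts in every library, a replicate block, thinning to 51862006 counts, glmTreat, an adjusted p of 0.05, each library left out in turn, and the longest transcript as length. Plots were drawn with matplotlib 3.10.9.

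The 9 genes and the lists were chosen with earlier results of these data known. All 9 are named, and in each list the called genes, some left out, and, where fewer than 3 were called, its most abundant tested genes by CPM up to 3 in all. *LAMA3*, *LAMB4*, *RTRAF*, *LDLRAD2* and the markers not in a list were named after their values were seen.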

Additional observations from a re-analysis of the deposited data

How the results depend on the processing

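Over 13 alternatives, *NID1* and *LAMC1* kept their direction and their calls, and of 117 fold changes of the 9 genes 112 kept direction and call. *LAMA5* lost its call in 2, both given with its values, and 3 reversed: *HSPG2* was at -0.31 without replicate 2 of miR-6133-5p (0.77 without replicate 1), and *LAMA2*, near 0 throughout, at -0.02 without replicate 1 of miControl and -0.04 without replicate 2 of miR-6133-5p. The cause was not tested.

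Library totals alone moved the all-gene median log2 fold change to 0.19 and that of the 9 genes to 0.22. Relative to it *NID1* was at -2.56, *LAMC1* at -1.57 and *LAMA5* at 1.3. All genes then gave 709 lower and 977 higher, 42.1% lower beside 65.6% with TMM, and the 6 lists 5 lower. glmTreat, by its stricter threshold, called 326 of all genes lower and 80 higher, 0 of the 9 higher, and 4 list genes lower and 2 higher.

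With each library left out in turn, where the lone library of a group is assumed to vary like the others, all genes called lower ran from 770 to 1249 and higher from 293 to 587, the 9 genes called higher from 0 to 1 and their median from -0.31 to 0.11, and list genes called lower from 8 to 15. With the longest transcript as length, group means were 0.33 and 0.716 for *LAMB1* over *LAMC1*, 0.192 and 1.54 for *NID2* over *NID1*, and 39.0% and 63.7% for the *LAMA5* share of alpha chains (miControl, then miR-6133-5p).

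The deviations of replicate 1 from its group mean had a correlation of 0.049 over genes between the groups. With 2 libraries per group, replicate 2 mirrors replicate 1, so this value cannot show whether the numbers pair the libraries. With a replicate block 1130 genes were called lower and 642 higher, and the calls among the 9 genes did not change. The search for seed matches was not run, as no mature sequence of the microRNA was at hand. At 101 counts, *LAMA2* has the least depth of the 9 genes.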
